A study of Homo sapiens with 12 samples.

Results

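The complement genes CFB, C3, C1R, C1S, CFI, SERPING1, CD55, CD46 and CD59 were followed across 4 siRNA groups of 786-O cells, an established line from a clear cell renal cell carcinoma (ccRCC). They are 9 of the 60448 genes of the count table. They were picked by function, as components and regulators of complement, at a time when the fold changes of these same libraries against siNC were already known. Their values are therefore given as a description and without p-values. Each name occurred once in the table.

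All 12 libraries came from the one line, with 3 libraries in each group, grown in serum-containing medium and transfected transiently with siRNA. The groups were siNC, the control siRNA of the study, and siGABPA, siGPD1L and siBRD9, named for the gene that each siRNA targets. Every group, the control included, had thus been transfected. GABPA is a DNA-binding subunit of an ETS-family transcription factor, GPD1L is related to glycerol-3-phosphate dehydrogenase, and BRD9 is a bromodomain subunit of a SWI/SNF chromatin remodelling complex. A single line limits the model. The study describes its sequencing of GABPA-depleted cells as independent experiments, and the labels do not say whether the 3 libraries of a group were separate cultures, so for siGPD1L and siBRD9 the p-values measure the spread between these libraries, which may be technical. Library totals ran from 21419987 to 24469305 counts in siNC, from 26395629 to 27363062 in siGABPA, from 27440715 to 28650340 in siGPD1L and from 19499090 to 29999290 in siBRD9.

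Complement is a cascade of plasma and surface proteins. In the classical pathway the proteases C1r and C1s, held by C1q, cut C4 and C2 to form an enzyme that cuts C3. In the alternative pathway factor B, the product of CFB, binds C3b and amplifies that cut. Host cells restrain the cascade with soluble proteins such as factor I (CFI) and C1 inhibitor (SERPING1) and with the membrane proteins CD55, CD46 and CD59. The liver makes most circulating complement, but epithelial cells also make it, and CFB, C3, C1R and C1S are known as genes that inflammatory cytokines and interferons induce.

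The siRNA targets were measured first. GABPA fell from 46.2 ± 4.41 CPM (counts scaled to library size with the TMM factors of all 12 libraries; SD, n = 3) in siNC to 15.5 ± 1.31 in siGABPA. GPD1L fell from 19.6 ± 0.657 CPM to 6.64 ± 0.792 in siGPD1L, and BRD9 from 101 ± 1.90 CPM to 25.3 ± 2.30 in siBRD9. In each case the adjusted p of edgeR's quasi-likelihood test was at most 2.79e-12. GABPA was also lower in the other two targeting groups, at 25.6 ± 0.525 CPM in siGPD1L (adjusted p = 8.25e-11, edgeR) and 27.3 ± 2.77 CPM in siBRD9 (adjusted p = 2.78e-08, edgeR). The groups siGPD1L and siBRD9 are therefore not groups with a control level of GABPA. BRD9 was lower by a smaller amount in siGABPA, at 77.3 ± 4.70 CPM (adjusted p = 3.66e-07, edgeR), and in siGPD1L, at 76.2 ± 4.29 CPM (adjusted p = 5.8e-08, edgeR). GPD1L was not lower outside its own group, at 22.3 ± 0.594 CPM in siGABPA and 20.45 ± 1.02 CPM in siBRD9.

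The cell identity was checked with marker genes. The 8 epithelial and ccRCC markers summed to between 1573 and 2485 CPM in a library, with KRT8 or VIM the most abundant, although CA9, a hypoxia target usually high in ccRCC, had few counts. NDUFA4L2 was also low, with 6 to 11 counts in siNC. Its mean was 0.368 CPM in siNC, 3.37 in siGABPA, 2.83 in siGPD1L and 1.66 in siBRD9. The 6 monocyte markers summed to between 0.205 and 1.16 CPM, with TYROBP at 0 counts in all 12 libraries. Of the 5 hepatocyte markers, SERPINA1 carried nearly the whole sum, at 97.95 to 158.6 CPM, beside ALB, APOA1 and TTR near 0. The monocyte markers and the hepatocyte markers other than SERPINA1 were thus near 0 in every group, and SERPINA1 was not. In bulk RNA, a change in the number of cells that express a gene and a change in RNA per cell cannot be told apart.

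In each targeting group against siNC, CFB, C3, C1R, C1S and CD55 were higher past the thresholds used for differentially expressed genes (DEGs), more than 1.5-fold with an adjusted p under 0.05. That is 5 of the 9 genes, of which 8 had enough counts to enter the fit. CFB, C1R and C1S entered these fits only through the targeting libraries, where they are high, so their calls are part of the description. None of the 9 was lower past the thresholds in siGABPA or siBRD9, and 1, CFI, was lower in siGPD1L. Of all genes tested, 21.3% were higher and 15.2% lower in siGABPA. The shares were 20.4% higher and 15.5% lower for siGPD1L, and 16.7% higher and 11.5% lower for siBRD9. The libraries of the 2 groups compared did not overlap for 7 of the 9 genes in siGABPA, 8 in siGPD1L and 8 in siBRD9, where 75.0%, 73.8% and 70.3% of all genes tested did not overlap. Because the genes were chosen with these comparisons known, nothing is read from the counts. Over the 8 genes the log2 fold change had a median of 1.58, 1.97 and 1.60, beside 0.02, 0.01 and 0.01 over all genes tested. The 3 comparisons share the siNC libraries, so each gene's values are set side by side below and not treated as separate evidence.

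**Figure D1:**
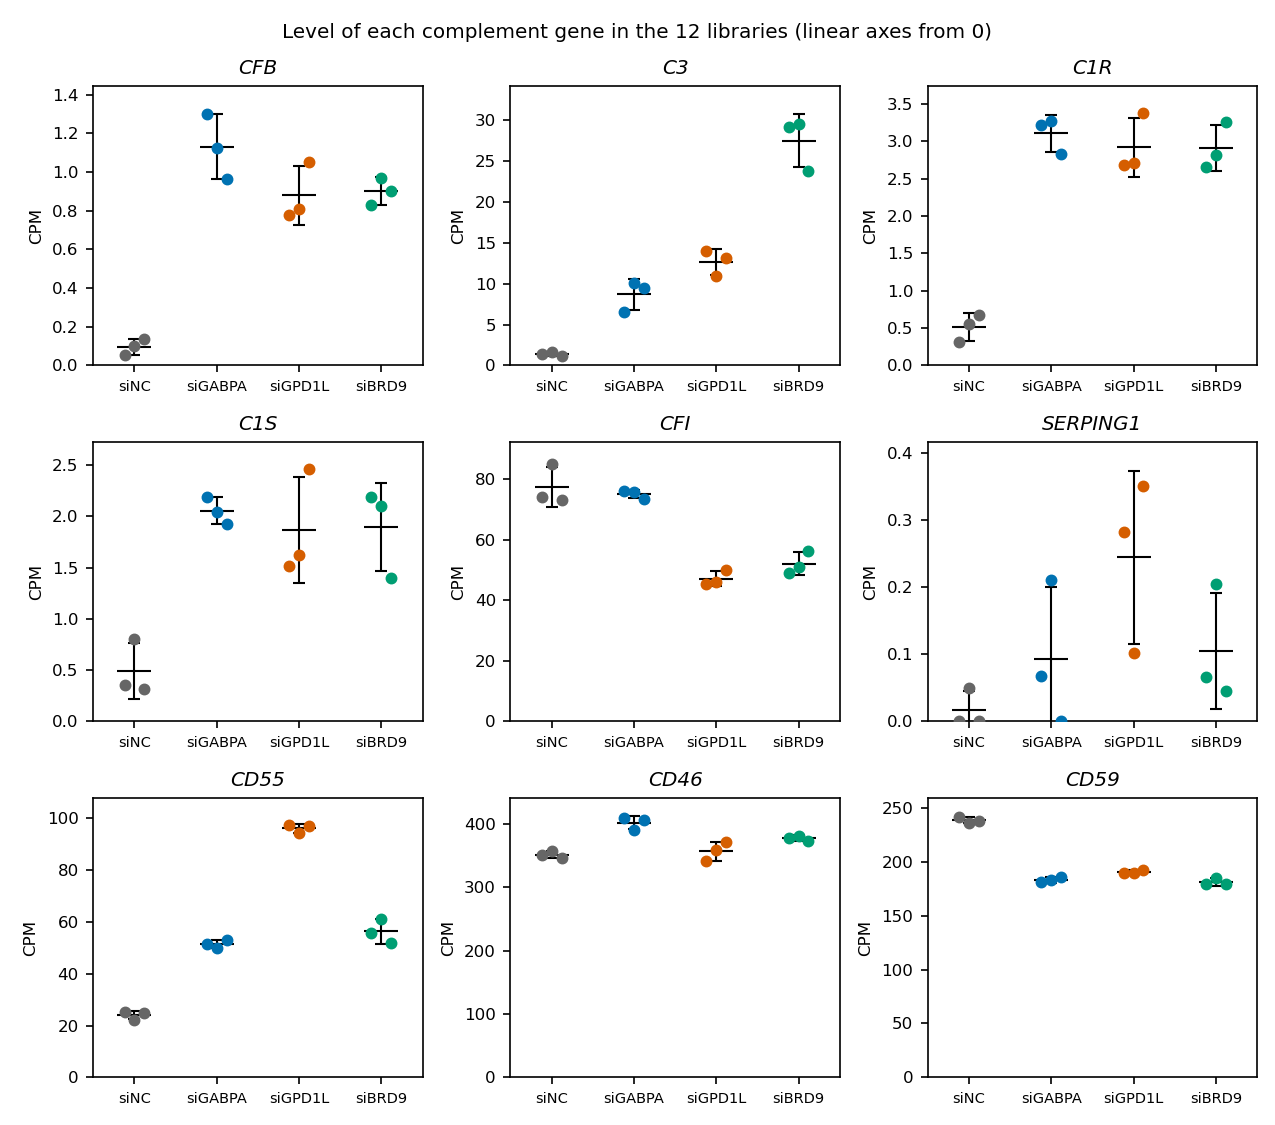
Level of each of the 9 genes in CPM (vertical axes, linear from 0) in the 12 libraries by siRNA group; points are libraries, the horizontal bar is the mean and the error bar the SD of 3 libraries. CFB, C3, C1R, C1S and CD55 lie higher in all 9 targeting libraries than in siNC, CD59 lies lower in all 9, C3 separates all 4 groups, and CD55 separates siGPD1L from the other groups while siGABPA and siBRD9 overlap.

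CFB encodes the protease zymogen of the alternative pathway and lies on chr6:31945650-31952084 on the plus strand (GRCh38, identifier ENSG00000243649). It was close to silent in the control, with 1, 2 and 3 counts in the siNC libraries. The siGABPA libraries held 38, 32 and 27 counts, the siGPD1L libraries 22, 24 and 30, and those of siBRD9 25, 19 and 20. All 9 targeting libraries lay above all 3 siNC libraries, and the 3 targeting groups overlapped one another. The ratio of summed counts, per library size, was 11.6 in siGABPA (95% exact counting interval 5.16 to 32.5), 9.04 in siGPD1L (3.97 to 25.4) and 9.16 in siBRD9 (3.98 to 25.9). The fitted log2 fold changes were 3.47 ± 0.44 (standard error), 3.12 ± 0.48 and 3.14 ± 0.47. These wide intervals come from the 6 siNC counts, and they cover counting error only. CFB shares 23 exon bases with C2, which had 43 counts in the whole table, and 2249 with the readthrough gene AL645922.1, which had 0.

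The promoter of CFB is shown because it holds matches to the motifs of the interferon and NF-kB pathways, whose components are described further on. The window runs from 250 bases before to 50 bases after the RefSeq start, on the plus strand of chr6:31945845-31946144 (GRCh38.p14, RefSeq). Capitals mark, from left to right, an ISRE match on the minus strand at -140 to -131, an NF-kB match at -112 to -103 and a GAS match at -92 to -84, counted from the start site. The ISRE was searched as the block GAAA, any 2 bases and a second GAAA, the GAS as TTCNNNGAA, and the ETS core as CCGGAAG, all on both strands, together with the NF-kB motif. None of the 3 matches overlaps another.
CFB promoter: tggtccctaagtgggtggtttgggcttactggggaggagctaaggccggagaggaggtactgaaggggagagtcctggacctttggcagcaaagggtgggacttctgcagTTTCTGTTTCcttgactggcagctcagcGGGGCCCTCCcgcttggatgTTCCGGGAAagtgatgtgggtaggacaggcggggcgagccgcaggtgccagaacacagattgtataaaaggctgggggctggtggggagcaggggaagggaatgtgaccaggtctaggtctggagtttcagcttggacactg

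Of 35116 RefSeq promoter windows of the same length, 3.57% held the ISRE letters, 7.66% the GAS, 11.3% the NF-kB motif and 10.3% the ETS core, while 12 windows held ISRE, GAS and NF-kB together. The table had windows for 6 of the 9 genes. One of the windows of C1R, and a pair of overlapping windows of CD59, held a GAS match, and both windows of CD46, which overlap, held an ETS core. The windows of CFI and CD55 held none of the 4. A match is a description of letters and not evidence of binding, and the absence of a match concerns only these letters in this window. The C1R window with the GAS match, at -86 to -78 in capitals, is printed for comparison, from the minus strand of chr12:7091844-7092143 (GRCh38.p14, RefSeq).
C1R promoter: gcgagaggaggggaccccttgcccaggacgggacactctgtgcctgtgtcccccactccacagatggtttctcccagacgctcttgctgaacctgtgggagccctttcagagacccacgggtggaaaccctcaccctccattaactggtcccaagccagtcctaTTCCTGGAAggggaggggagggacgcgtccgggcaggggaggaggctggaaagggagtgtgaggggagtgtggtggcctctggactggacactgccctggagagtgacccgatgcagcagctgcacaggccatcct

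C3 encodes the central component on which all pathways converge and lies on chr19:6677704-6730562 on the minus strand (GRCh38, ENSG00000125730). It had 27, 32 and 25 counts in siNC, which is 1.37 CPM on average. The counts were 192, 286 and 265 with siGABPA, 398, 324 and 373 with siGPD1L, and 882, 578 and 526 with siBRD9. Expressed as CPM, the siGABPA libraries reached 6.58 to 10.1, the siGPD1L libraries 10.95 to 14.03 and the siBRD9 libraries 23.8 to 29.6. The 4 groups did not overlap at any point, in the order siNC, siGABPA, siGPD1L and siBRD9. The log2 fold changes against siNC were 2.67 ± 0.19, 3.22 ± 0.15 and 4.34 ± 0.14, or 6.35-fold, 9.31-fold and 20.3-fold. In siBRD9 the change of C3 ranked 28 from the top among 15475 genes.

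C1R and C1S encode the paired proteases of the first component and are near one another on chromosome 12, at chr12:7080199-7092607 on the minus strand (ENSG00000159403) and chr12:6988259-7071032 on the plus strand (ENSG00000182326; both GRCh38). C1R had 6, 11 and 15 counts in siNC and 94, 93 and 79 in siGABPA. It had 76, 80 and 96 counts in siGPD1L and 80, 55 and 72 in siBRD9. For C1S the siNC libraries held 7, 16 and 7 counts. The siGABPA libraries held 64, 58 and 54, the siGPD1L libraries 43, 48 and 70, and the siBRD9 libraries 66, 41 and 31. For both genes every targeting library, in CPM, lay above every siNC library and the targeting groups overlapped.

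The log2 fold changes of C1R were 2.57 ± 0.25 in siGABPA, 2.49 ± 0.27 in siGPD1L and 2.48 ± 0.27 in siBRD9. Those of C1S were 2.06 ± 0.30, 1.93 ± 0.34 and 1.97 ± 0.34. In the siGABPA libraries, C1R had between 1.46 and 1.60 counts for each count of C1S, in siGPD1L between 1.37 and 1.77, in siBRD9 between 1.21 and 2.32, and in siNC, with its low counts, between 0.688 and 2.14. C1R shares 672 exon bases with C1RL on the same strand, a gene with 8785 counts in the table, and C1S shares 229 with EMG1, so the levels of C1R and C1S depend on how shared reads were assigned.

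CFI encodes the serine protease that inactivates C3b and C4b, and lies on chr4:109740694-109802179 on the minus strand (GRCh38, ENSG00000205403). Unlike the 4 component genes it was well expressed in the control, at 74.2, 85.1 and 73.0 CPM. It measured 76.3, 75.6 and 73.5 CPM with siGABPA, 45.5, 46.1 and 50.1 CPM with siGPD1L, and 48.9, 51.0 and 56.3 CPM with siBRD9. The siGABPA libraries overlapped siNC, whereas all 6 siGPD1L and siBRD9 libraries lay below every siNC and siGABPA library. The log2 fold change against siNC was -0.71 ± 0.06 in siGPD1L, past the fold threshold, and -0.56 ± 0.06 in siBRD9, just inside it. Both lay close to the threshold: the siGPD1L call was lost with scaling to total counts (-0.54), and siBRD9 passed without siBRD9 replicate 3 (-0.61), siNC replicate 1 (-0.60) or siNC replicate 3 (-0.61). In siGABPA it was -0.04 ± 0.05, a value whose sign turned with scaling to total counts, at 0.17. CFI shares 1562 exon bases with AC126283.2, a gene not analysed here.

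SERPING1, the gene of C1 inhibitor on chr11:57597387-57614853 on the plus strand (GRCh38, ENSG00000149131), was at the limit of detection. The siNC libraries held 0, 1 and 0 counts and the siGABPA libraries 2, 6 and 0. The siGPD1L libraries held 8, 3 and 10, and the siBRD9 libraries 2, 4 and 1. Only the siGPD1L libraries lay wholly above siNC. A library with 0 counts allows up to 3, and the ratio of summed counts in siGPD1L, 15.0, had a counting interval from 2.41 to 620. The gene entered the fit in none of the 6 comparisons.

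Of the 3 membrane regulators, only CD55 passed the fold threshold against siNC. CD55, which speeds the decay of the C3-cutting enzymes, lies on chr1:207321376-207386804 on the plus strand (GRCh38, ENSG00000196352). It measured 25.3, 22.3 and 24.8 CPM in siNC and 51.6, 50.1 and 53.1 CPM in siGABPA. In siGPD1L it measured 97.3, 94.2 and 97.2 CPM, and in siBRD9 55.9, 61.3 and 51.9 CPM. The siGPD1L libraries stood above all others, and siGABPA and siBRD9 overlapped between them and siNC. The log2 fold changes were 1.09 ± 0.06 (2.13-fold), 1.999 ± 0.05 and 1.23 ± 0.07 (2.35-fold).

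CD46, the cofactor with which factor I cuts C3b on host cells, lies on chr1:207752057-207795513 on the plus strand (GRCh38, ENSG00000117335). It was the most abundant of the 9, at 346 to 358 CPM in siNC, 390 to 409 in siGABPA, 341 to 371 in siGPD1L and 373 to 381 in siBRD9. Its log2 fold changes were 0.19 ± 0.03, 0.03 ± 0.03 and 0.11 ± 0.03, all inside the fold threshold. CD59, which blocks the membrane attack complex, lies on chr11:33703010-33736491 on the minus strand (GRCh38, ENSG00000085063).

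CD59 measured 236 to 241 CPM in siNC, 181 to 186 in siGABPA, 189 to 192 in siGPD1L and 179 to 185 in siBRD9. All 9 targeting libraries lay below siNC by a small and even amount, with log2 fold changes of -0.38 ± 0.03, -0.32 ± 0.03 and -0.39 ± 0.03. CD59 shares 629 exon bases with AL049629.2, a gene not analysed here. Scaling to total counts in place of TMM moved every gene by 0.22, 0.17 and 0.13 on the log2 scale in the 3 comparisons with siNC, so the values of CD46 and CD59 are relative to the bulk of genes. CD59 remained negative under that scaling, at -0.16, -0.15 and -0.26.

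**Figure D2:**
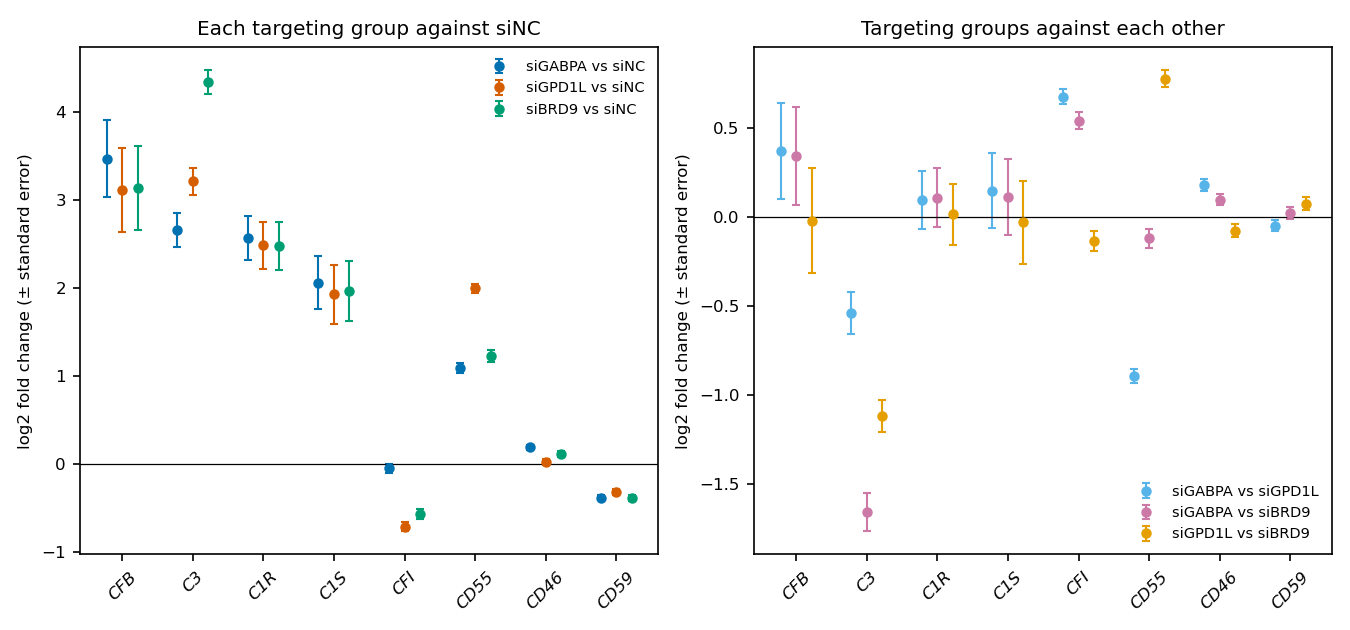
Fitted log2 fold change with its standard error (vertical axes) for the 8 genes that entered the fit; colours are comparisons, with each targeting group against siNC on the left and the targeting groups against each other on the right. CFB, C3, C1R, C1S and CD55 lie above 1 in all 3 comparisons with siNC, and on the right C3 lies below 0 in all 3 comparisons, while CD55 (-0.12 in siGABPA against siBRD9) and CFI (-0.14 in siGPD1L against siBRD9) each lie near 0 in 1 of them.

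Between the targeting groups, C3, CD55 and CFI each passed the thresholds in at least 1 comparison. C3 was lower in siGABPA than in siBRD9, by -1.66 ± 0.11 on the log2 scale, and lower in siGPD1L than in siBRD9, by -1.12 ± 0.09. Between siGABPA and siGPD1L it differed by -0.54 ± 0.12, inside the fold threshold, and passed it without siGABPA replicate 2 (-0.66), siGABPA replicate 3 (-0.61) or siGPD1L replicate 2 (-0.65). CD55 was lower in siGABPA than in siGPD1L, by -0.90 ± 0.04, and higher in siGPD1L than in siBRD9, by 0.77 ± 0.05. Between siGABPA and siBRD9 its libraries overlapped, at -0.12 ± 0.05. The group with the highest C3 was thus siBRD9 and that with the highest CD55 was siGPD1L.

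CFI was higher in siGABPA than in siGPD1L, by 0.67 ± 0.04, and higher than in siBRD9, by 0.54 ± 0.05, the latter inside the fold threshold. Between siGPD1L and siBRD9 its libraries overlapped, at -0.14 ± 0.05. The libraries of CD46 did not overlap in any of the 3 comparisons and those of CD59 in 2 of them, but the differences were small, between -0.08 and 0.18 for CD46 and between -0.05 and 0.07 for CD59. CFB, C1R and C1S overlapped in all 3 of these comparisons. Their largest difference, CFB in siGABPA against siGPD1L, was 0.37 ± 0.27. The counting interval of that CFB ratio, 0.945 to 1.76, leaves room for a difference of some size. Against siGPD1L, siGABPA had 1 gene higher and 1 lower past the thresholds, where 8.54% and 6.90% of all genes were. Against siBRD9, siGABPA had 0 higher and 1 lower, beside 8.52% and 5.74%. Between siGPD1L and siBRD9 there were 1 higher and 1 lower, beside 4.01% and 2.91%.

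Divided by the length of their exons, the 9 genes covered several orders of magnitude. In siNC, CD46 stood at 40.4 ± 0.67 CPM per kilobase, CD59 at 23.0 ± 0.25, CFI at 15.9 ± 1.36 and CD55 at 4.09 ± 0.27. C3 followed at 0.165 ± 0.03 CPM per kilobase, then C1R and C1S at 0.087 and 0.076, which overlapped, then CFB at 0.019 and SERPING1. The 3 membrane regulators and CFI lay above the 4 components in every group. In siGPD1L, CD55 at 16.3 ± 0.30 CPM per kilobase passed CFI at 9.69 ± 0.52, the reverse of their order in siNC. In siBRD9, C3 reached 3.31 ± 0.39 CPM per kilobase, near the control level of CD55.

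**Figure D3:**
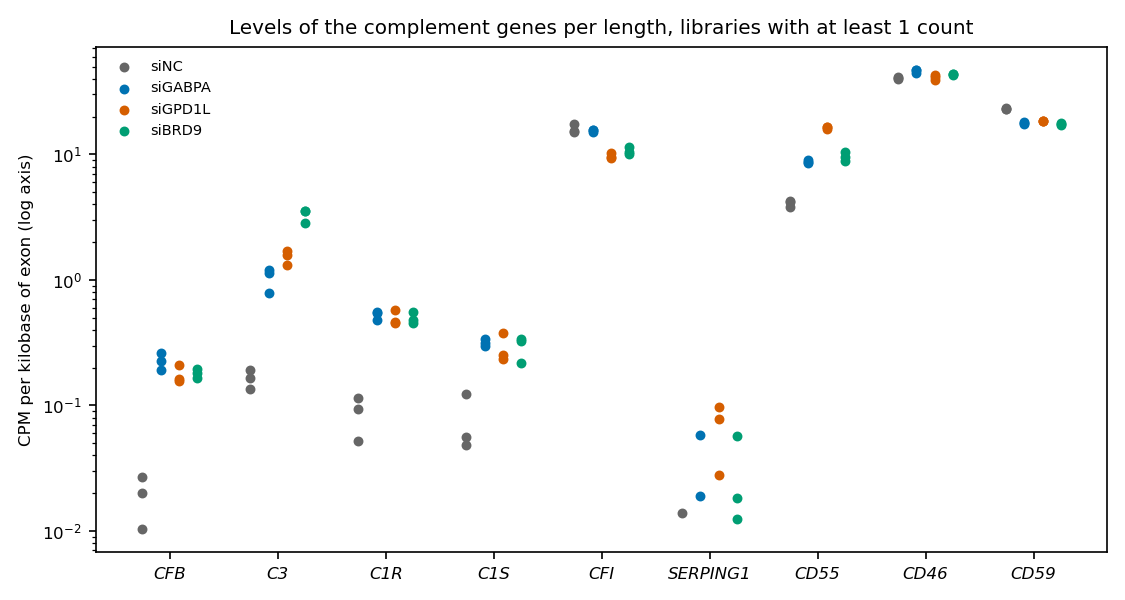
Level in CPM per kilobase of exon (vertical axis, logarithmic) of the 9 genes in each library with at least 1 count; colours are siRNA groups. CD46, CD59 and CFI lie above 9 in all libraries, CFB and SERPING1 lie below 0.3, and the siGPD1L points of CD55 lie above those of CFI.

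The other complement genes were taken from a list of 50, grouped by role, all of them in the table. Most were silent or nearly so: 15 entered the fit in siGABPA and in siGPD1L and 12 in siBRD9. Against siNC, 7 were higher and 1 lower in siGABPA, 6 higher and 1 lower in siGPD1L, and 5 higher and 2 lower in siBRD9. The shares over all genes tested were those above, from 16.7% to 21.3% higher and from 11.5% to 15.5% lower. The medians of the tested genes were 0.47, 0.33 and 0.47 on the log2 scale, beside 0.02, 0.01 and 0.01 over all genes tested. C1QA, C1QB and C1QC, the 3 chains of the recognition protein with which C1r and C1s work, had 0 counts in all 12 libraries.

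Of the receptor genes, ITGB2, the beta chain of complement receptors 3 and 4, was higher in all 3 groups. It had 28 to 29 counts in siNC, 166 to 191 in siGABPA, 143 to 195 in siGPD1L and 146 to 212 in siBRD9. Its log2 fold changes were 2.15 (adjusted p = 1.29e-09, edgeR), 2.10 (adjusted p = 8.79e-10, edgeR) and 2.35 (adjusted p = 9.2e-11, edgeR). ITGAX, the alpha chain of receptor 4, was higher in siGPD1L by 2.18 (adjusted p = 3.07e-08, edgeR) and in siBRD9 by 1.08 (adjusted p = 0.00523, edgeR). In siGABPA it measured 0.47 and its libraries overlapped siNC, though it passed the thresholds with scaling to total counts (0.69). Of the 6 monocyte markers, whose sum was at most 1.16 CPM in a library, CSF1R had 4 counts in each siNC library and 21 to 27 in siGPD1L, but 1 to 16 in siBRD9, where it overlapped siNC. In siGABPA, where ITGB2 but not ITGAX was called, it had 6 to 10. CD14 had 4 to 7 counts in siNC, 9 to 13 in siGABPA, 2 to 5 in siGPD1L and 1 to 5 in siBRD9. TYROBP was at 0 and PTPRC at 0 or 1 count in every library. The part of such cells in the changes of ITGB2 and ITGAX was not tested.

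C3AR1, the receptor of the C3a fragment, went the other way. It was lower in siBRD9 by -1.15 (adjusted p = 1.55e-06, edgeR) and in siGABPA by -0.66 (adjusted p = 0.000386, edgeR). The siGABPA call was lost without siGABPA replicate 2 (-0.57) and with scaling to total counts (-0.44). In siGPD1L the libraries of C3AR1 overlapped siNC at 0.10, and siGPD1L was above siBRD9 by 1.26 (adjusted p = 1.22e-07, edgeR).

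CFD, the protease that activates factor B, was higher in all 3 groups, by 0.88 in siGABPA (adjusted p = 0.000769, edgeR), 1.79 in siGPD1L (adjusted p = 1.38e-07, edgeR) and 1.39 in siBRD9 (adjusted p = 8.96e-06, edgeR). It rose from 29 to 48 counts in siNC to between 68 and 225 in the targeting libraries. CFP, which encodes properdin, the stabiliser of the same enzyme, was lower in siBRD9 by -0.94 (adjusted p = 0.0396, edgeR). With 5 to 17 counts in siNC and siBRD9, that call was lost under most alternatives, among them without siBRD9 replicate 2 (-0.78) or 3 (-0.86), and without siNC replicate 1 (-0.93) or 2 (-0.79).

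CLU, the gene of clusterin, a soluble inhibitor of the terminal complex, stood higher in siGABPA than in each of the other 3 groups. It measured 106 ± 0.549 CPM in siNC, 266 ± 6.67 in siGABPA, 133 ± 4.44 in siGPD1L and 138 ± 3.76 in siBRD9. It was 1.32 higher in siGABPA than in siNC on the log2 scale (adjusted p = 2.63e-16, edgeR). It was also higher in siGABPA than in siGPD1L, by 1.003 (adjusted p = 2.82e-18, edgeR), and than in siBRD9, by 0.95 (adjusted p = 4.2e-17, edgeR). The values of 0.33 and 0.39 in siGPD1L and siBRD9 against siNC were inside the fold threshold.

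Of the classical and lectin genes, C4A was higher in siGABPA by 1.61 (16 to 19 counts) and in siGPD1L by 1.58 (16 to 18), on 2 to 7 counts in siNC. C4A entered these fits only through the targeting libraries, so no p-value is given for it. In siBRD9 it was not tested. Its near-identical copy C4B makes the assignment of those reads uncertain. COLEC10, a collectin of the lectin pathway, was higher in siGABPA by 1.78 (13 to 17 counts) and in siGPD1L by 2.33 (11 to 31), on 2 to 4 counts in siNC. Like C4A, it entered these fits only through the targeting libraries, was not tested in siBRD9 and is given without a p-value. It left the test without siGPD1L replicate 1 or 2. MASP2, the protease of that pathway, was lower in siGPD1L by -0.75 (adjusted p = 0.00578, edgeR), a call lost with scaling to total counts (-0.58). Further DEGs of the list, named here after their values were seen, included C1RL in siGABPA (0.74), SUSD4 in siGPD1L and siBRD9 (1.22 and 0.86) and C5 in siBRD9 (0.95), all higher, with adjusted p of at most 0.000397 (edgeR).

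**Figure D4:**
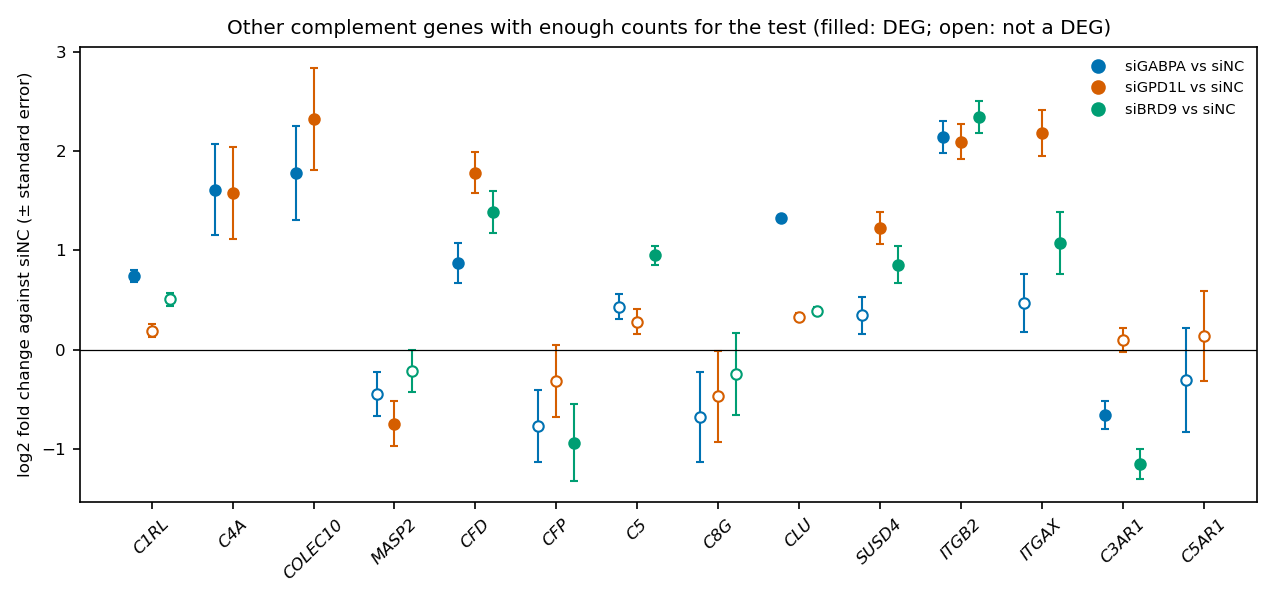
Log2 fold change against siNC with its standard error (vertical axis) of 14 other complement genes that had enough counts, in role order; colours are targeting groups, filled points are DEGs and open points are not. ITGB2 and CFD are filled in all 3 groups, CLU only in siGABPA, and C3AR1 lies below 0 in siGABPA and siBRD9 but not in siGPD1L.

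A list of 20 genes for the transcription factors and receptors through which interferon, NF-kB and cytokine signals reach complement genes was measured in the same way, and all 20 entered each fit. Against siNC, 4 were higher and 2 lower in siGABPA, 4 higher and 3 lower in siGPD1L, and 4 higher and 1 lower in siBRD9. Of all genes tested, 21.3% were higher and 15.2% lower in siGABPA, 20.4% higher and 15.5% lower in siGPD1L, and 16.7% higher and 11.5% lower in siBRD9, so the counts of this list are near those shares and are no result about the list. STAT2 and IRF9, which take part in binding the ISRE, were higher in all 3 groups. STAT2 rose by 1.29 (adjusted p = 1.64e-15, edgeR), 1.19 (adjusted p = 3.39e-17, edgeR) and 1.07 (adjusted p = 7.98e-15, edgeR). IRF9 rose by 1.64, 1.56 and 1.14, from 6 to 17 counts in siNC. Its siNC libraries did not all reach the filter level. It thus entered these fits through the targeting libraries, as C4A and COLEC10 did, and is given without a p-value. The siBRD9 call of IRF9 was lost without siNC replicate 3 (0.74).

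CEBPB, a factor of the acute-phase response, was higher by 0.92, 1.05 and 1.002, and IFNGR2, a chain of the interferon gamma receptor, by 0.70, 0.65 and 0.97, with adjusted p of at most 9.16e-12 and 2.64e-10 (edgeR). NFKB1 was lower in siGABPA (-1.07; adjusted p = 1.77e-13, edgeR) and in siGPD1L (-0.69; adjusted p = 1.28e-11, edgeR), the latter lost with scaling to total counts (-0.52). IFNAR1 was lower in siGPD1L (-0.77; adjusted p = 4.03e-12, edgeR). Whether these changes have a part in those of the 9 complement genes was not tested.

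For each of the 9, the genes with the most similar pattern were found by Pearson correlation of log2 CPM over the 12 libraries, among genes with a mean of at least 10 CPM. The 12 points fall into the 4 groups and share scaling, so the coefficients describe the pattern between groups. CFB was closest to YPEL3 (r = 0.990), HCFC1R1 and MSR1, and C3 to MALT1 (r = 0.996), DLG3 and HILPDA. C1R was closest to EPSTI1 (r = 0.985), YPEL3 and HLA-V, and C1S to FBLN7 (r = 0.973), MSL2 and AKAP9. CD55 was closest to SAT1 (r = 0.997), CTSL and CSNK1E, CFI to IFT172 (r = 0.984), TGFBI and LINC00511, and CD59 to HNRNPC (r = 0.996), VAPA and YWHAG. CD46 had its nearest gene in MR1, with r = 0.927, and SERPING1, on its few counts, in ZBTB10, with r = 0.882. YPEL3 was the gene that 2 of the 9, CFB and C1R, had in common. The minimum level kept CFB, C1R, C1S and SERPING1 themselves out of the search. Set beside the genes found, CFB and C1R had r = 0.992 with each other, above the nearest gene of either, and C1S had r = 0.931 with CFB and 0.918 with C1R.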

How the data were processed

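RNA from 12 libraries of 786-O cells was made into libraries with a NEBNext kit and sequenced by the study. The authors deposited raw counts, whole numbers of reads per gene in 1 column per library, with no normalization and no pooling. The submitters' processing notes list HISAT2, HTSeq, DESeq2 and hg38, and the study's methods name featureCounts as the counter. The strand setting, annotation release and read filters are not given in the sources used here, so reads of overlapping genes cannot be assigned with certainty. Positions, exon lengths and overlaps were taken from GENCODE release 29, which held 56868 of the 60448 identifiers, and promoter windows from RefSeq.

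Each comparison was fitted on its own 6 libraries in R 4.3.3 with edgeR 4.0.16 (TMM scaling, filterByExpr, quasi-likelihood test, Benjamini-Hochberg adjustment over all genes tested, prior count 2). DEGs differed more than 1.5-fold with an adjusted p under 0.05, the thresholds of the study. Alternatives used DESeq2 1.42.0, limma 3.58.1, other scalings and filters, one fit of all libraries, a replicate block and each library left out. The fit was tested on simulated data.

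The 9 genes, the lists and the tests were chosen with earlier results of these data known. Named from the other complement genes were up to 6 DEGs per direction with the largest fold change against siNC, and for each of the 9 the 3 genes with the highest correlation; any gene outside this rule is said to be so. Counting intervals are exact at 95%, and a count of 0 allows up to 3 counts; both cover counting error only. Library totals are given with the groups. Single genes that are counted in the lists but not named are not reported here.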

Additional observations from a re-analysis of the deposited data

How the results depend on the processing

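The 5 component and regulator genes higher against siNC (CFB, C3, C1R, C1S and CD55) kept their call in every comparison with siNC under every alternative that could test them. For CFB, C1R and C1S this says little about the filter, because they entered these fits only through the targeting libraries. Requiring at least 10 counts in every library left these genes untested against siNC. Of 663 values of the 8 genes that entered a fit (SERPING1 gave none) under alternatives, 16 changed sign, none of them a called value. Calls that changed were those of CFI and C3. The C3 difference between siGABPA and siGPD1L passed the threshold without siGABPA replicate 2 (-0.66) or 3 (-0.61) or siGPD1L replicate 2 (-0.65). For CFI, its siGPD1L call was lost with scaling to total counts (-0.54), its siBRD9 value passed the threshold without siBRD9 replicate 3 (-0.61), siNC replicate 1 (-0.60) or siNC replicate 3 (-0.61), and its difference between siGABPA and siBRD9 passed it with total counts (0.61) or without siBRD9 replicate 3 (0.59). Without a fold threshold the DEGs numbered 11734, 11400 and 10413 in siGABPA, siGPD1L and siBRD9 against siNC, in place of 5890, 5707 and 4361. Between siGABPA and siGPD1L they numbered 8960 (2556 with the threshold), between siGABPA and siBRD9 8708 (2333), and between siGPD1L and siBRD9 6379 (1124). The other complement genes called then numbered 11 of 15 tested in siGPD1L against siNC (7 with the threshold), 7 of 12 in siGABPA against siBRD9 (1) and 8 of 14 in siGPD1L against siBRD9 (4), where the genes tested in all numbered 15929, 16357 and 16240. With the fold threshold kept, the count of 1 in siGABPA against siBRD9 became 4 with no filter on low counts. It was 1 to 2 with single libraries left out. The call of C5AR1 in siGPD1L against siBRD9 was lost under most alternatives. Ranking by Spearman in place of Pearson shared 3 of the most similar genes. Same-numbered libraries did not deviate together (correlations between -0.074 and 0.031), so the numbers do not pair them; with the replicate block the DEGs were 5860, 5644 and 4306 against siNC and 2504, 2264 and 1073 between targeting groups. None of the names of the 9 genes repeated, so summing rows of a name gave no separate value for them. Depth limits CFB and SERPING1, whose control counts are 6 and 1 in all.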
